A study of Mus musculus with 16 samples.

Results

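Chemokines and chemokine receptors were described in 16 mouse osteosarcomas. The members were all protein-coding genes of the count table named *Ccl*, *Cxcl*, *Cx3cl1*, *Xcl1*, *Ccr*, *Cxcr*, *Cx3cr1* or *Ackr* followed by their number, 50 of 25054 genes. They comprise 30 ligands (17 of the CC and 11 of the CXC kind, *Cx3cl1* and *Xcl1*), 16 signaling receptors and 4 atypical receptors. *Cxcl11* has such a name but is a polymorphic pseudogene in the annotation, and it was left out.

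All mice carried one *OsxCreERT2* allele and floxed *p53* and *Rb1* on both chromosomes, where the tamoxifen-inducible Cre is driven by *Osterix*, a gene of bone-forming cells. They were given 400 ug/g tamoxifen from a 20 mg/mL stock at 1 month of age, were of both sexes and were older than 6 months at harvest. The 8 tumors labeled KO, from 8 mice, also carried floxed *Arid1a* on both chromosomes, while the 8 tumors labeled WT had no floxed *Arid1a* and came from 4 mice (4 tumors of N42, 2 of N43 and 1 each of N215 and N25). Body sites are labeled for the WT tumors only, and the N25 tumor is labeled lung. The RNA is that of whole tumors, in which fewer cells of a type and less RNA per cell cannot be told apart.

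Chemokines are small secreted proteins that direct the movement of leukocytes, and most are named for the spacing of their first cysteines (CC, CXC, CX3C). Their receptors couple to inhibitory G proteins in the membrane of the responding cell, whereas the atypical receptors bind and remove chemokines without this signaling. In bone, *Cxcl12* of stromal cells holds *Cxcr4*-bearing blood progenitors in the marrow, and the *Ccl9* and *Ccr1* pair is known from osteoclasts and their precursors.

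Of the members, 29 lie in 8 groups of neighbors (starts at most 500000 bases apart), 10 of them in a pair of CC ligand groups on chromosome 11 (GRCm38, 82035571 to 82116799 and 83525778 to 83664683). The promoters of 4 members picked from the results are shown, as the 250 bases before the RefSeq start on the gene's own strand. *Ccl9* and *Ccr1* had the most negative fold changes of the ligands and receptors tested, *Cxcl2* was at most 0.280 CPM (depth-scaled count) in KO, and *Cxcl15* was seen in 2 tumors only. They lie at chr11:83578637-83578886, chr9:123968693-123968942, chr5:90903649-90903898 and chr5:90794284-90794533 of GRCm38.p6, the first pair on the minus strand. Capitals mark matches on either strand to the TATA box (searched as TATAAA), the core of PU.1 sites (GAGGAA), an NF-kB form or the C/EBP site (TTGCNNAA). The NF-kB form is narrower than the full consensus, since it fixes a run of T before the closing bases. TATA matches on both strands can overlap.
Ccl9: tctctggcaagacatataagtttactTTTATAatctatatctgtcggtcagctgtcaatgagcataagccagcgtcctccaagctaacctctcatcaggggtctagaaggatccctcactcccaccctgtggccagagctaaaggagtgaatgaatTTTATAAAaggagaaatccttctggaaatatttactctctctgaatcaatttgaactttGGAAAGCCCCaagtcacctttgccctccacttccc
Ccr1: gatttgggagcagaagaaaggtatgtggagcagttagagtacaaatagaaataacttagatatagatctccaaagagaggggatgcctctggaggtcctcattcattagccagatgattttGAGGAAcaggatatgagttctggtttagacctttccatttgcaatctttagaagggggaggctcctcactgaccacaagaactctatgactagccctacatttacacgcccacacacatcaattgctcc
Cxcl2: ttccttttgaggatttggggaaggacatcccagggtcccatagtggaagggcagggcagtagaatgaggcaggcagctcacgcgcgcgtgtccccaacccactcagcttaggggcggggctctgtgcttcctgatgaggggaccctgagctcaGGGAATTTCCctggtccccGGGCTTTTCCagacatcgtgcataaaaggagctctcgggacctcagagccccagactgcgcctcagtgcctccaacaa
Cxcl15: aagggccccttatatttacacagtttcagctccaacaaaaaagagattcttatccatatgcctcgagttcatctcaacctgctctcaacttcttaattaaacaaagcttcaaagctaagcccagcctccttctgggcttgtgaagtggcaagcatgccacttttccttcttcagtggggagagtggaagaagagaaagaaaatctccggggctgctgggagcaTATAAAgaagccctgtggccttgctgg

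The *Ccl9* window held 3 TATA matches, of which a pair overlap, and 1 NF-kB match, and that of *Ccr1* held 1 PU.1 core. That of *Cxcl2* held 2 NF-kB matches, and that of *Cxcl15* held 1 TATA match. The window of *Cx3cr1*, which was called but is not shown, held 0 matches. Its RefSeq start lies 1583 bases from the start in GENCODE. The RefSeq table held 38 of the 50 members. The NF-kB form searched stood in 5 of these (13.2%), those of *Ccl9*, *Ccl20*, *Ccr3*, *Cxcl1* and *Cxcl2*, against 1.41% of all 32851 promoters. Other forms of the NF-kB consensus, such as one in the *Cxcl10* window, were not counted. TATA stood in 10 (26.3% against 12.4%), the PU.1 core in 12 (31.6% against 23.3%) and C/EBP in 3 (7.89% against 9.56%). A match is a description of the letters.

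The KO libraries were shallower, with 1109487 to 15059640 counts (median 5367670) against 7806160 to 16962329 (median 14828152) in WT. Levels are given as CPM, the usual depth-scaled count, relative to the TMM-normalized library size. A count of 3 was worth 0.203 to 6.69 CPM in KO, highest in Massa and then Grilka (4.03), and 0.146 to 0.340 in WT. *Arid1a*, counted over the whole gene, was at 107 to 270 CPM in KO and 125 to 236 in WT, and since reads on the floxed part are not separated, this does not check the labels. Summed marker lists of other tissues and cells were high in some tumors. The 9 lung markers reached 28900 CPM in N25 and 11500 in the KO tumor Massa against at most 77.5 in the other 14, the 11 salivary gland markers 118000 in the KO tumor Prince, and the 10 skeletal muscle markers 125000 and 71700 in the KO tumors Oregon and Montana against at most 7390 in the others. In the KO tumor Zelda the 6 B cell markers reached 778 CPM, the 8 liver markers 1340 and the 8 erythroid markers 1550.

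Levels between members differed widely. Per kb of exon, the most abundant ligands by their median over the 16 tumors were *Cxcl14* (27.2 CPM per kb), *Cxcl12* (10.7), *Cxcl16* (10.2), *Ccl8* (9.27), *Ccl6* (9.25) and *Ccl9* (6.10). *Cxcr4* (11.9), *Ackr3* (5.94), *Ccr1* (5.87) and *Cx3cr1* (3.40) were the most abundant receptors. In contrast, 9 members were over 3 counts in all 16 tumors and 7 were so in at most 2. A KO tumor had 4 to 34 members with at least 10 counts and a WT tumor 25 to 42.

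**Figure D1:**
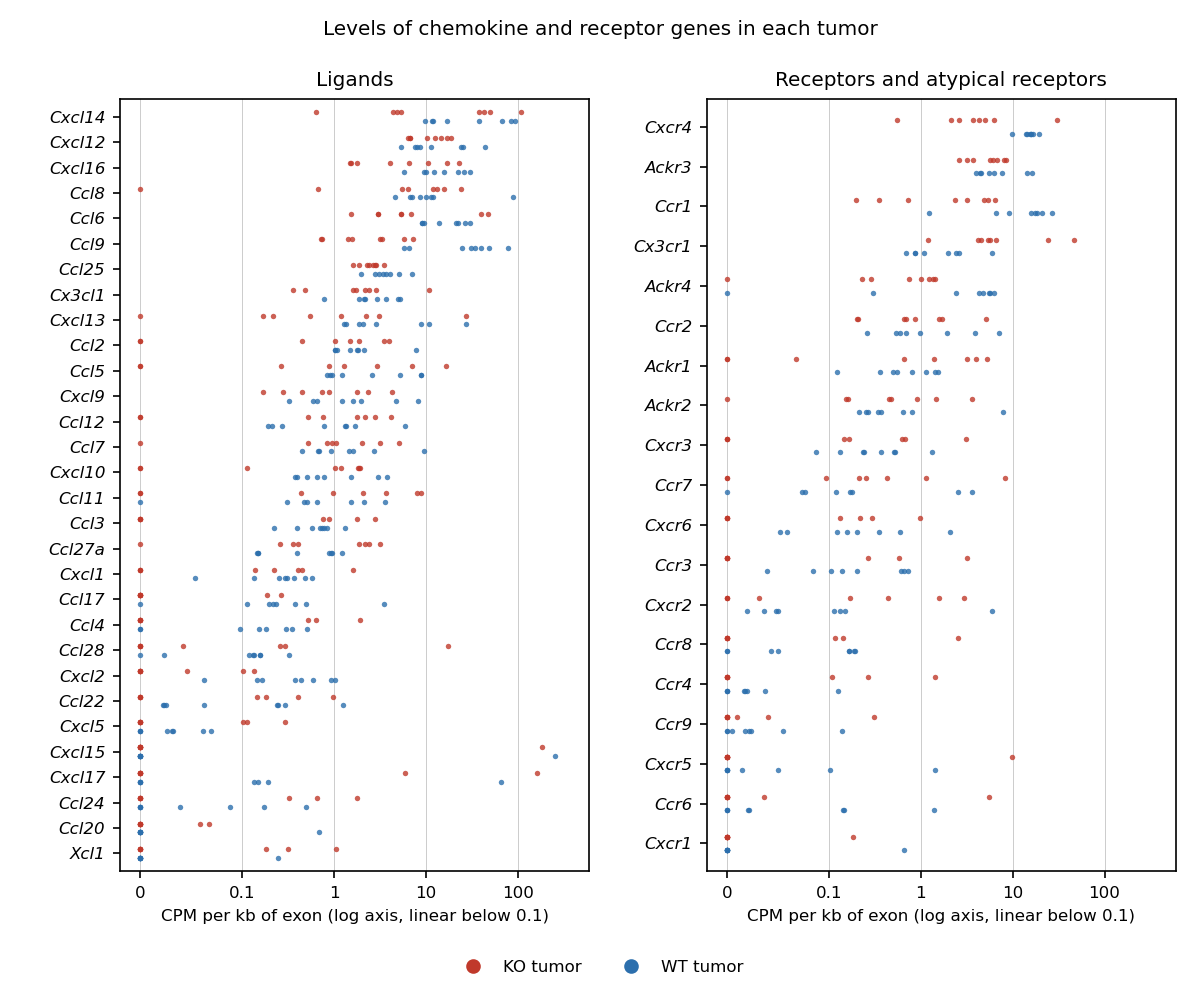
CPM per kb of exon (log axis, linear below 0.1) of 49 members, one point per tumor, KO red and WT blue, ordered by the median over 16 tumors. *Cxcl14* and *Cxcr4* head their panels, and *Cxcl15* is off 0 in 2 tumors.

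The question of the comparison is which genes differ between tumors with and without floxed *Arid1a*. Of the 50 members, 23 passed the filter on low counts (14 ligands, 5 signaling receptors and all 4 atypical receptors). *Ccl9* was lower and *Cx3cr1* higher in KO at an adjusted p-value under 0.05 in edgeR, 1 in each direction, where 1.86% of all genes were called higher and 2.15% lower. Together they are 8.70% of the members tested, where 4.01% of all 15413 genes tested were called. By sign alone, 3 members were higher and 20 lower, against 55.9% and 44.1% of all genes. The median log2 fold change was −0.57 over the members tested and 0.10 over all genes. At an unadjusted p under 0.05, 1 member was higher and 4 were lower (all genes, 13.3% and 9.75%). The groups overlapped for all 50 members, while 0.208% of the genes tested did not overlap in each direction. The count and the genes called depended on the fit. With DESeq2 5 of 39 members tested were called (12.5% of all genes), *Ccl9*, *Cx3cr1*, *Ccr1*, *Cxcr4* and *Cxcl2*. With RLE scaling *Ccl9* and *Cx3cr1* were called of 23 tested (4.07%), and with no filter *Ccl9* and *Cxcl2* of 50 (2.71%). Without N25 *Ccl9*, *Cx3cr1* and *Ccr1* were called of 23 (5.84%). Without Massa and Grilka *Ccl9* alone was called of 28 (5.36%), and with Medusa and Ohio as the KO tumors *Cxcr4* alone of 35 (4.45%). It was 0 with limma-voom and the mouse as a random effect (0.11%), with counts summed per mouse (0.0625%), with the library total as a covariate (0.642%) and without N42 (0.0498%), where 5, 2, 3 and 2 members were at an unadjusted p under 0.05 beside 8.9%, 7.88%, 18.4% and 7.99% of all genes, of 23, 26, 23 and 25 members tested. Tumors of one mouse are not independent, and the p-values measure the spread between tumors.

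**Figure D2:**
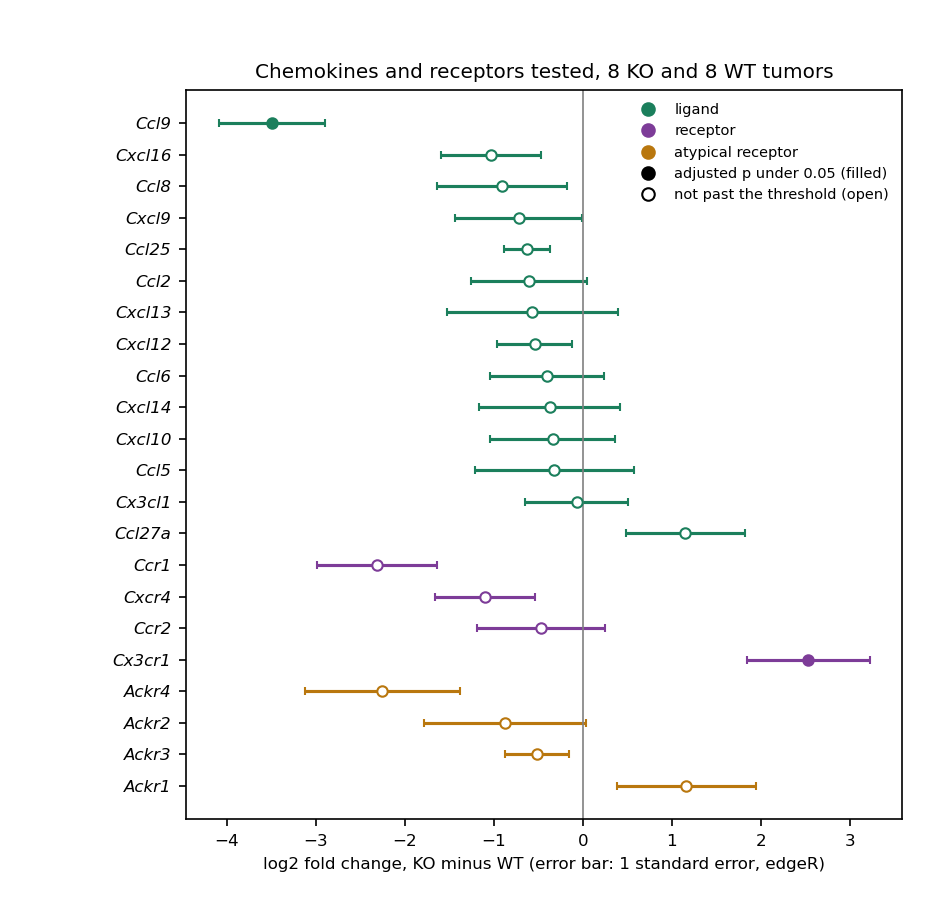
Log2 fold change, KO minus WT, of 22 members tested, with 1 standard error (edgeR), colored by class; filled points are past the threshold. *Ccl9* (−3.49) and *Cx3cr1* (2.53) are filled, and 19 points lie below 0.

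Of the 14 ligands tested, *Ccl9*, a CC chemokine of myeloid cells that binds *Ccr1*, had the largest log2 difference. The gene (ENSMUSG00000019122) lies on the minus strand of chromosome 11 of GRCm38, from 83572919 to 83578636. It was at 2.16 CPM in the lowest KO tumor (Prince), 7.13 in the median and 21.7 in the highest (Montana), and at 17.4 in N215, 98.9 in the median WT tumor and 236 in the right femur tumor of N42. The groups overlapped through N215 and N25 (19.7), the single tumors of 2 WT mice, both below Montana, and N215 also just below Grilka (17.5). The other 6 WT tumors, all of N42 and N43, were at 74.2 or more. KO minus WT, this came to −3.49 on the log2 scale (standard error 0.60, adjusted p = 0.0071 in edgeR). It was past the threshold in 20 of 25 alternatives, which include every fit that leaves out one tumor. It missed with the mouse as a random effect (−2.95, limma adjusted p = 0.231) and with counts summed per mouse (−2.89, edgeR adjusted p = 0.242). It also missed without the 4 tumors of N42 (−2.65, edgeR adjusted p = 0.291). The other misses were the library total as a covariate (−3.66, edgeR adjusted p = 0.0919) and Medusa and Ohio as the KO tumors (−3.95, edgeR adjusted p = 0.0623).

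*Ccr1* (chromosome 9, 123962124 to 123968692), a receptor of *Ccl9*, *Ccl6*, *Ccl3* and *Ccl5*, was at 0.559 CPM in Oregon, 7.82 in the median and 18.0 in Medusa among KO tumors, and at 3.52 in N215, 47.6 in the median and 76.6 in the right femur tumor of N42 among WT. Apart from N215, each WT tumor was above every KO tumor. Its log2 fold change of −2.31 (standard error 0.67) had an adjusted p of 0.0589 in edgeR and missed the threshold. It passed in 4 of 25 alternatives, those with DESeq2 (−2.25, adjusted p = 0.0102) and without N215, Zelda or N25. With the mouse as a random effect it was −2.13 (limma adjusted p = 0.482), per mouse −1.77 (edgeR adjusted p = 0.632) and without N42 −1.55 (edgeR adjusted p = 0.666). *Ccr1* was the most abundant receptor by CPM in the 6 WT tumors of N42 and N43, and in none of the KO tumors. In the spine tumor of N43 it was barely above *Cxcr4* (26.0 and 25.9 CPM). The other WT mice, N215 and N25, were led by *Cxcr4* and *Ccr2*. The neighboring ligand *Ccl6* was at 2.77 to 84.8 CPM in KO (median 9.53) and 16.2 to 53.7 in WT (median 31.4), with a log2 difference of −0.40 (standard error 0.64, edgeR adjusted p = 0.756).

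Most macrophage markers were called lower in KO beside these genes. The osteoblast marker sum also had a lower median in KO, with no marker called in edgeR, and it was high in some KO tumors. Of the 13 macrophage markers, 11 were called lower in KO (edgeR), and their summed level was 363 to 2070 CPM in KO (median 434) and 754 to 2920 in WT (median 2510). No marker was at 0 in WT, while 4 of 13 were at 0 in Massa and 1 in Oregon. In Massa *Lyz2* alone was at 1910 CPM. N215, lowest among the WT tumors in *Ccr1* and *Ccl9*, was also lowest in this sum (754), followed by N25 (1760), where *Lyz2* alone was at 1380 CPM. N25 was below N215 in some markers, such as *Mrc1* (66.9 and 133), and above it in others, such as *Csf1r* (84.9 and 71.2). Of the 6 general leukocyte markers only *Laptm5* was called lower (−1.87, standard error 0.46, edgeR adjusted p = 0.0314), and their sum was 40.0 to 1400 CPM in KO (median 111) and 143 to 491 in WT (median 444). Both lists had 0 calls with the mouse as a random effect, with counts per mouse, with the library total as a covariate and without N42. The 10 osteoblast markers summed to 689 to 59500 CPM in KO (median 7220) and 2760 to 80800 in WT (median 53800), where N25 (2760) and N215 (4800), the WT tumors low in *Ccl9*, were lowest. At 0 were 3 of them in Massa, 1 in Prince and 2 in N215. Of these 10, 8 had lower fitted levels in KO, 3 of them at an unadjusted p under 0.05, and 0 were called in edgeR and 3 in DESeq2 (median log2 −1.06). In KO, the osteoblast sums of Grilka (59500), Medusa (38700) and Ohio (24900) were above that of the left limb tumor of N42 (20800). *Col1a1* alone was at 36200, 25900 and 12500 CPM in these KO tumors, and at 10200 in the N42 tumor. Single markers went both ways. *Alpl* was lower in these KO tumors (291, 140 and 330 CPM) than in the N42 tumor (525), and *Runx2* was higher (551, 254 and 291 against 192). The other KO tumors summed to 11500 or less. *Ccl9* was at 17.5, 9.5 and 4.29 CPM in Grilka, Medusa and Ohio, and at 148 in that N42 tumor. *Ccr1* was at 6.71, 18 and 13.9 CPM in them, and at 45.2 there. The part of the marker lists in the *Ccl9* and *Ccr1* values was not tested.

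*Cx3cr1*, the receptor of *Cx3cl1* on monocytes, macrophages and microglia, differed the other way. The gene (ENSMUSG00000052336) spans chromosome 9 from 119901616 to 120069879, minus strand. It was at 5.31 CPM in Oregon, 25 in the median and 212 in Massa among KO tumors, and at 3.07, 6.88 and 27.1 among WT, lowest in the right femur tumor of N42 and highest in the pelvis tumor of N43. The highest values came from the 2 shallowest libraries, with 95 counts in Massa (95% exact binomial interval 171 to 259 CPM) and 82 in Grilka (110 CPM, 87.6 to 137). Such intervals cover counting error only. KO minus WT, this came to 2.53 on the log2 scale (standard error 0.69, adjusted p = 0.0461 in edgeR). In the same test 11 of the 13 macrophage markers were called lower, and 0 were with counts per mouse. The *Cx3cr1* difference was past the threshold in 9 of 25 alternatives. Without Massa and Grilka it was 1.12 (edgeR adjusted p = 0.172), and with the library total as a covariate 0.70 (edgeR adjusted p = 0.568). An antisense gene (*Gm33858*) overlaps an exon, and the strand of counting is not given in the sources used here, so reads of both cannot be told apart. Its ligand *Cx3cl1* had a log2 difference of −0.07 (standard error 0.58, edgeR adjusted p = 0.960).

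**Figure D3:**
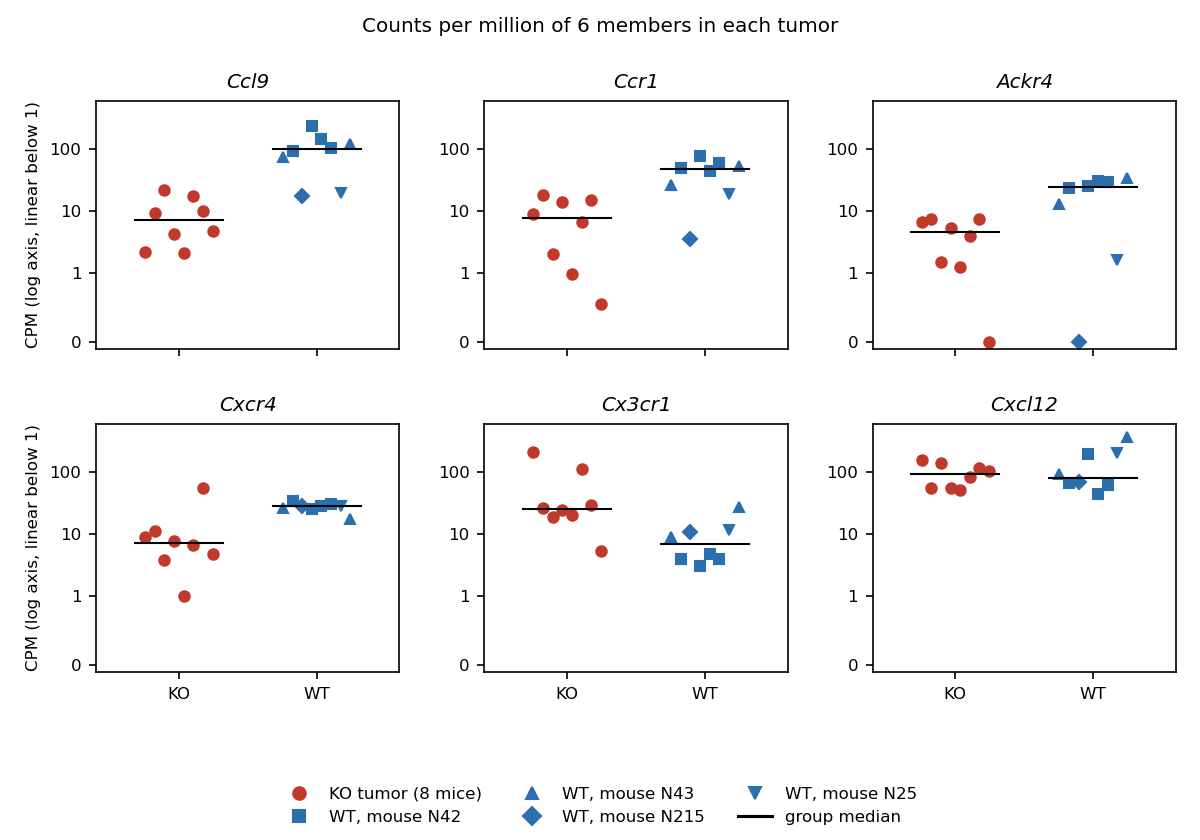
CPM of *Ccl9*, *Ccr1*, *Ackr4*, *Cxcr4*, *Cx3cr1* and *Cxcl12* in each tumor (log axis, linear below 1), KO red, WT blue with a symbol for each mouse, and a line at the group median. *Ccl9* and *Ccr1* are low in N215 relative to the tumors of N42 and N43, and 2 KO tumors stand above the others in *Cx3cr1*.

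*Cxcl12*, the ligand of *Cxcr4* and *Ackr3*, was at 51.6 to 154 CPM in KO (median 92.5) and 43.6 to 362 in WT (median 80.4). Within mouse N42 alone it ran from 43.6 to 197. Its log2 difference was −0.54 (standard error 0.42, edgeR adjusted p = 0.477). *Cxcr4* was even across WT, at 17.6 to 34.6 CPM (median 28.4), and at 0.996 to 55.5 in KO (median 7.22), where 7 of 8 KO tumors were at or under 11.4 and Zelda at 55.5. The log2 difference was −1.10 (standard error 0.56, edgeR adjusted p = 0.251), and without Zelda −2.16 (edgeR adjusted p = 0.00574). It was past the threshold in 3 of 25 alternatives. With the mouse as a random effect it was −1.82 (limma adjusted p = 0.395). Per mouse it was −1.01 (edgeR adjusted p = 0.743) and without N42 −0.91 (edgeR adjusted p = 0.777). Zelda also held the highest leukocyte, B cell, neutrophil, and T and NK cell marker sums (1400, 778, 435 and 103 CPM). The scavenger *Ackr3* was at 8.66 to 28.2 CPM in KO and 13.3 to 54.2 in WT (log2 −0.51, standard error 0.36, edgeR adjusted p = 0.416).

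Of the other abundant ligands, *Cxcl14*, made by epithelium and stroma, ranged from 1.15 (Zelda) to 200 CPM (Prince) in KO and 17.6 to 171 in WT, and within N42 from 21.1 to 171 (log2 −0.37, standard error 0.79, edgeR adjusted p = 0.825). *Cxcl16*, a membrane-bound ligand of *Cxcr6*, was at 4.47 to 69.1 CPM in KO (median 16) and 17.5 to 91.7 in WT (median 42.4), with a log2 difference of −1.03 (standard error 0.56, edgeR adjusted p = 0.274). It shares 16.9% of its 50-base stretches with *Zmynd15*, which overlaps it on the other strand. *Ccl8*, a monocyte attractant, was at 0 to 12.2 CPM in KO (median 4.68) and 2.32 to 45.3 in WT (median 4.74), with N215 far above the other tumors (log2 −0.91, standard error 0.73, edgeR adjusted p = 0.479). Its neighbors *Ccl2* (8.73 CPM), *Ccl7* (7.60) and *Ccl12* (3.18) were also highest in N215, and *Ccl11* of the same group was not.

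*Ccl25*, a ligand of *Ccr9* and *Ackr4*, was detected in every tumor, at 12.1 to 26.0 CPM in KO (median 18.7) and 14.5 to 52.4 in WT (median 26.1). Its log2 difference was −0.63 (standard error 0.26, edgeR adjusted p = 0.162). Apart from *Ccl9*, no ligand tested passed the threshold, and the log2 differences of these ligands were between −1.03 (*Cxcl16*) and 1.15 (*Ccl27a*, which shares 45.0% of its 50-base stretches with *Ccl27b* and other copies).

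Of the atypical receptors, *Ackr4*, a scavenger of *Ccl25* and other CC ligands, was at 0 CPM in Oregon, 4.69 in the median and 7.60 in Medusa among KO tumors, and at 0 in N215, 24.5 in the median and 33.8 in the pelvis tumor of N43 among WT. The N42 and N43 tumors were at 13 or more, above every KO tumor. N215 and N25 (1.61), the WT tumors lowest in the osteoblast marker sum, were within the KO range. Grilka, Medusa and Ohio, the KO tumors highest in that sum, were at 4.03, 7.60 and 5.34. The part of the osteoblast markers in the *Ackr4* values was not tested. The log2 difference was −2.25 (standard error 0.87, edgeR adjusted p = 0.134). Its exons overlap *Acad11* on the other strand. *Ackr1*, which binds chemokines on red cells and venules, and *Ackr2*, of lymphatic vessels, had log2 differences of 1.16 and −0.87 (edgeR adjusted p = 0.389 and 0.608).

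Other pairs of ligand and receptor had wide, overlapping ranges. *Ccl2* (0 to 4.46 CPM in KO, 1.16 to 8.73 in WT) and its receptor *Ccr2* (1.34 to 34.2 and 1.76 to 47.7) had log2 differences of −0.60 and −0.47 (edgeR adjusted p = 0.616 and 0.743). *Ccl5*, an attractant of T cells and monocytes, was at 0 to 15.6 CPM in KO and 0.795 to 8.51 in WT (log2 −0.32, standard error 0.89, edgeR adjusted p = 0.870). The interferon-induced *Cxcl9* and *Cxcl10* had log2 differences of −0.72 and −0.34 (edgeR adjusted p = 0.579 and 0.818), both highest in WT in the left shoulder tumor of N42, while their receptor *Cxcr3* was untested and at most 5.37 CPM. *Cxcl2*, a neutrophil attractant, did not pass the filter either. It was at 0 in 5 KO tumors and at most 0.280 CPM in the others, and at 0.129 to 2.13 in WT, where N25 (0.129) and the pelvis tumor of N43 (0.301) were lowest. It was called lower with no filter (log2 −3.59, standard error 0.91, edgeR adjusted p = 0.0437) and with DESeq2 (−3.16, standard error 0.91, adjusted p = 0.00954). A count of 3 would be worth 0.203 to 6.69 CPM in a KO tumor, and *Cxcl2* shares 5.84% of its 50-base stretches with *Cxcl3*.

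Of the 50 members, 20 had a leading tumor, with at least 30 counts and 10 times the median of the other 15 tumors. The next tumor was far below for some, such as *Ccl28* (83.9 and 1.54 CPM). For others it was close, such as *Ccl9* (236 and 148), *Cxcl2* (2.13 and 1.90) and *Cxcl13* (31.1 and 31.0). N25 and Zelda led 6 each and Prince 3. *Cxcl15*, a chemokine of lung epithelium, was at 537 CPM in N25 (8323 counts, 95% exact interval 526 to 549) and 393 in Massa (176 counts, 337 to 455) and at 0 in the other 14, where 3 counts would be 0.146 to 4.03 CPM. These are the 2 tumors with the high lung marker sums, all 9 lung markers being above 0 in both. *Cxcr2*, *Ccr2*, *Cxcr6*, *Ccl22* and *Ackr2* were also highest in N25, at 18.1, 47.7, 4.0, 2.90 and 24.5 CPM. In Massa, *Cxcr2* (4 counts, 8.92 CPM, interval 2.43 to 22.8) was second highest. The 10 neutrophil markers summed to 270 CPM in N25 and 170 in Massa. Zelda was above both (435), and the other tumors were at 40.6 or less. The part of lung or leukocyte RNA in these values was not tested.

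*Ccl28* and *Cxcl17*, chemokines of mucosal and glandular epithelium, were highest in Prince. *Ccl28* had 1011 counts there (83.9 CPM, interval 78.8 to 89.3), 89.9% of its counts over all tumors, and at most 1.54 CPM elsewhere. *Cxcl17* was at 123 CPM in Prince, 50.1 in N25, 4.46 in Massa (2 counts) and at most 0.146 in the other 13. Prince is the tumor with 118000 CPM of salivary gland markers, with 11 of 11 above 0, while the next highest sum was 461 in Grilka. *Ccl11*, which Prince led at 9.55 CPM, was close in Montana (8.67). The part of gland RNA in them was not tested.

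Zelda led *Cxcr5* (487 counts, 33.0 CPM, interval 30.2 to 36.1), *Ccr7* (16.3 CPM), *Ccr6* (12.8), *Ccr3* (10.4) and *Ccr9* (3.19), receptors of B and T cells and, for *Ccr3*, eosinophils. *Cxcr5* guides B cells to *Cxcl13*, which reached 31.1 CPM in Zelda and 31.0 in the right femur tumor of N42. N25 was second in *Cxcr5* (4.71 CPM), and the remaining 14 tumors were at 0.340 or less. The B cell marker sum was also highest in Zelda (778 CPM), followed by N25, and it was 1.34 to 35.4 CPM in the others, with 5 of 6 markers at 0 in Massa and in Grilka. The T and NK cell marker sum was highest in Zelda too (103 CPM), followed by N25 (26.9). The part of these cells in the receptor values was not tested. *Ccr8*, of regulatory T cells and other lymphocytes, was led by Ohio (31 counts, 2.96 CPM), and its next value was 0.227.

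**Figure D4:**
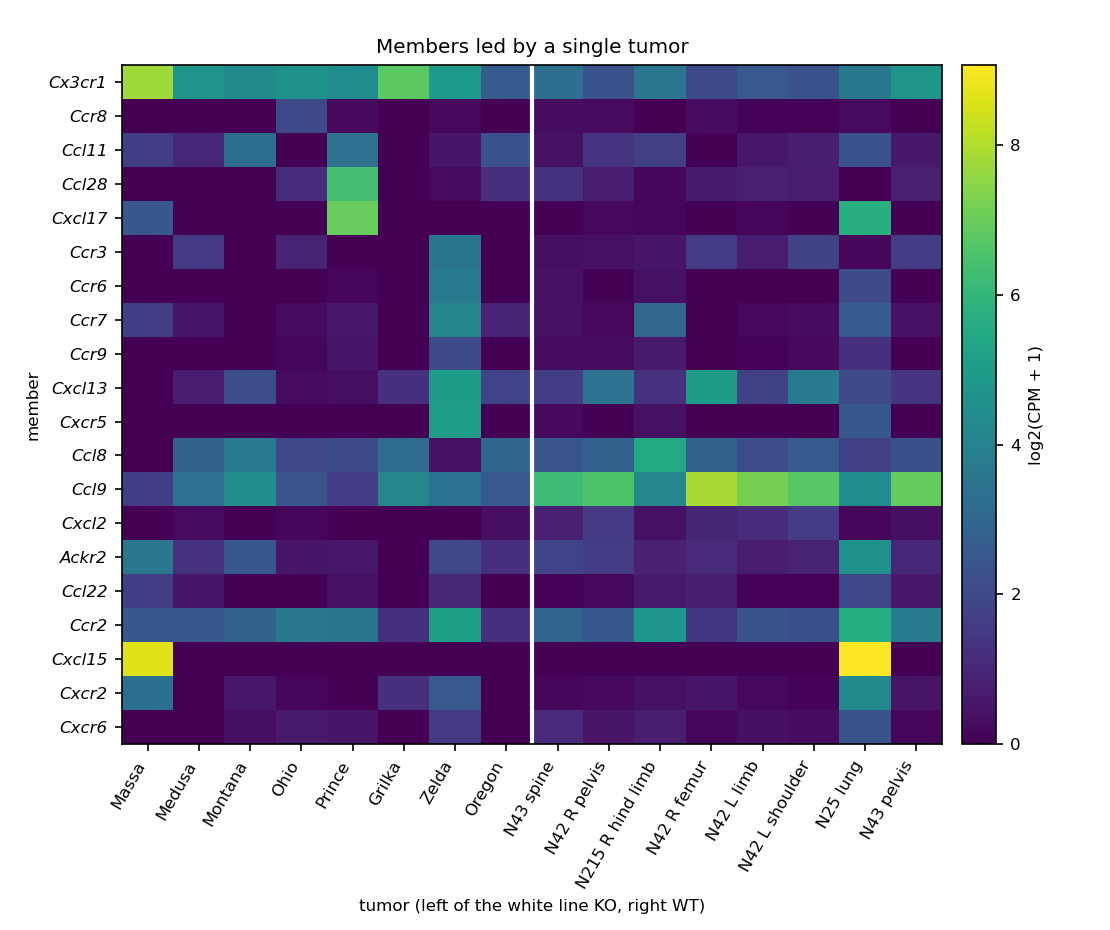
The 20 members led by one tumor (rows) in the 16 tumors (columns, KO left of the white line and WT right), colored by log2(CPM + 1). *Cxcl15* is bright in Massa and N25, *Ccl28* in Prince, and *Cxcr5* in Zelda.

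Spread differed between members as well as between groups. Among the 4 tumors of N42, *Cxcr4* (25.4 to 34.6 CPM), *Ackr4* (23.3 to 30.4) and *Ccr1* (45.2 to 76.6) were close together, whereas *Cxcl13* (2.37 to 31.0), *Cxcl9* (1.76 to 24.7) and *Ccl5* (0.795 to 8.44) ranged widely within the one animal. The standard deviation of log2 CPM was larger in KO than in WT for 16 of the 23 members tested, in libraries that are also shallower. It was taken over 8 mice in KO and over 8 tumors of 4 mice in WT, so the group spreads are not alike in kind. In the second group on chromosome 11, *Ccl9* was called, while *Ccl6* and *Ccl5* beside it were not, and *Ccl3* and *Ccl4* were untested. The difference between these genes was not tested.

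Untested members numbered 27, 16 ligands and 11 receptors. Apart from those described, they stayed low, the highest being *Ccl7* at 7.60 CPM in N215. The other genes of the pathway, from a hand-written list, were signaling proteins with a few further ligands and receptors, and their mean levels in WT ran from 0.521 CPM (*Gpr75*) to 226 (*Cdc42*). Of 35 such genes counted, 33 were tested, and only *Gng2*, a G protein subunit, was called (log2 −1.65, edgeR adjusted p = 0.0395), 3.03% of those tested. Of 19 inducing cytokines and transcription factors 12 were tested and 0 were called in edgeR, with 1 (*Nfkb2*) at an unadjusted p under 0.05 and 2 called by DESeq2.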

How the data were processed

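RNA of 16 tumors was sequenced after removal of ribosomal RNA. The authors aligned the reads to mm10 with Novoalign 2.08.01, counted them per gene with USeq and ran DESeq2 1.26.0, and deposited the raw counts used here. The members, gene lists and alternatives were chosen with earlier results of these data known. Groups were taken from the labels, and 8 KO tumors were compared with 8 WT tumors from 4 mice. Counts were tested with edgeR 4.0.16 (R 4.3.3; TMM, filterByExpr with a minimum count of 10 and total of 15, glmQLFit, glmQLFTest, two-sided) over all genes, with Benjamini-Hochberg adjustment and a threshold of 0.05. The method was tested on simulated counts drawn independently for each tumor, which cannot show how it behaves with several tumors of one mouse. DESeq2 1.42.0, limma 3.58.1 (voom, mouse as random effect), counts per mouse, RLE scaling, no filter, the library total as covariate and sets of tumors left out were alternatives. The genes described tumor by tumor are those past the threshold and the 6 ligands and 4 receptors with the highest CPM per kb. Members whose highest tumor had at least 30 counts and 10 times the median of the other 15 were added. The values of 1 member are not reported here, though it is in the counts. Positions and shared stretches of 50 bases come from GENCODE vM21 and promoters from RefSeq (GRCm38.p6). Depth sets the precision: 3 counts are the floor, and intervals are 95% Clopper-Pearson. Python 3.11.15 with scipy 1.17.1 and matplotlib 3.10.9 made intervals and figures.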

Additional observations from a re-analysis of the deposited data

Results flagged for a closer look

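In 6 of 46 group values checked for a tumor far from the other 7 of its group (log2 CPM, Dixon's test), one tumor stood apart, where chance marks about 1 in 20 groups of independent values. The WT tumors, of 4 mice, are not independent, so this rate does not hold for them. In WT, *Ackr2* was at 24.5 CPM in the lung tumor of N25 (next 2.53). *Ccl2* was at 8.73 CPM (next 2.41) and *Ccl8* at 45.3 CPM (next 6.08) in N215, neighbors on chromosome 11, and *Ccr1* was at 3.52 CPM in N215, the lowest (next 18.6). *Cxcr4* was at 17.6 CPM in the pelvis tumor of N43, below the other WT tumors (next 25.4). In KO, *Ackr4* was at 0 CPM in Oregon (next 1.25).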

How the results depend on the processing

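No paired analysis was possible because KO and WT tumors came from different animals. Against 2 of 23 members called in edgeR, 5 of 39 were called with DESeq2 (*Ccl9*, *Cx3cr1*, *Ccr1*, *Cxcr4* and *Cxcl2*). The count was 1 of 28 without Massa and Grilka (*Ccl9*) and 1 of 35 with Medusa and Ohio as the KO tumors (*Cxcr4*). Of all genes, these fits called 4.01%, 12.5%, 5.36% and 4.45%. No member was called with limma-voom, with counts per mouse, with the library total as covariate and without N42. Those fits called 0.11%, 0.0625%, 0.642% and 0.0498% of all genes. Leaving out one tumor gave 1 to 4, with 1.62% to 8.52% of all genes called (4 without Zelda or N215). *Ccl9* was past the threshold in 20 of 25 alternatives (adjusted p 3.01e-07 to 0.291), *Cx3cr1* in 9 (0.00249 to 0.617), *Ccr1* in 4 and *Cxcr4* in 3. Of the signaling list 6 were called with DESeq2, 2 without N25, without Massa and Grilka or with Medusa and Ohio, 0 with limma-voom, per mouse, RLE scaling or without N42, and 0 to 4 leaving out one tumor; of the inducers 2, 1 (without Massa and Grilka) and 0 to 1.

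Marker calls varied too. Macrophage calls (11) were 3 with Medusa and Ohio, 0 with limma-voom, per mouse, with the covariate and without N42, and 5 to 12 leaving out one tumor (7 without Medusa, Oregon or either tumor of N43). Leukocyte calls (1) were 5 with DESeq2, 3 with Medusa and Ohio, 0 in the same 4 settings, and 0 to 6. With DESeq2 the calls were erythroid 1, osteoblast 3, lung 1, salivary gland 3 and skin 4, and with no filter salivary gland 6, liver 4 and skin 2. Salivary gland had 1 with the covariate and 1 without Massa and Grilka, lung 1 and lymphatic 1 without Massa and Grilka, and lymphatic 1 with Medusa and Ohio. Lymphatic, erythroid, osteoblast, lung and salivary gland calls were 0 to 1 leaving out one tumor.

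Signs of log2 differences that were not called turned under some settings. With Medusa and Ohio they were −4.07 (*Ackr1*), 0.25 (*Ccl2*), −0.69 (*Ccl27a*), 0.39 (*Cxcl10*) and 0.29 (*Cxcl9*), and with DESeq2 0.85 (*Ackr2*). Without N25 they were 0.80 (*Ackr2*), 0.19 (*Ccr2*) and 0.10 (*Cx3cl1*), with the covariate 0.44 (*Cx3cl1*), 1.17 (*Cxcl13*) and 0.20 (*Cxcl14*), per mouse 0.17 (*Cxcl13*) and 0.04 (*Cxcl14*), and without N42 1.40 (*Cxcl13*) and 0.04 (*Cxcl14*). Leaving out one tumor gave −1.29 to 0.80 (*Ackr2*), −1.04 to 0.04 (*Ccl2*), −0.87 to 0.06 (*Ccl5*, 0.01 when the N42 left shoulder tumor was left out), −1.28 to 0.22 (*Ccl8*), −1.16 to 0.19 (*Ccr2*), −0.91 to 0.10 (*Cx3cl1*, 0.01 without Montana), −0.54 to 0.07 (*Cxcl10*) and −2.67 to 0.17 (*Cxcl13*). The cause was not tested. Low levels are seen less well in the shallow KO libraries.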
